A study of Caenorhabditis elegans with 40 samples.

Results

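The fatty acid desaturase genes of *Caenorhabditis elegans*, *fat-1* to *fat-7*, were examined across growth temperature, age and the loss of the neuropeptide receptor NPR-8. They were chosen by name, 7 of the 41560 genes in the tables, and all 7 were measured in all 40 libraries. RNA came from whole hermaphrodites of the wild-type strain N2 (WT) and of *npr-8(ok1439)*, a deletion strain that had been backcrossed to N2, fed *E. coli* OP50 and kept at 20°C or 25°C for at least 2 generations. Young adults (0-day-old in the sample labels, 1-day-old in the study's methods) and old adults (9-day-old) of each strain at each temperature gave 8 groups of 5 libraries. The old animals had been separated from their progeny by daily washing, with the adults held back on a strainer and returned to plates. The labels do not say whether the 5 libraries of a group are separate cultures, so p-values cover the spread between these libraries, which may be technical.

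Desaturases place double bonds in fatty acyl chains, and the number of double bonds in membrane phospholipids sets how fluid a membrane is at a given temperature. In *C. elegans*, FAT-5, FAT-6 and FAT-7 are Δ9 desaturases that make monounsaturated fatty acids, FAT-5 mainly from palmitic acid, FAT-6 and FAT-7 mainly from stearic acid to give oleic acid. FAT-2 (Δ12) turns oleic into linoleic acid, FAT-1 (ω-3) turns omega-6 into omega-3 fatty acids, and FAT-3 (Δ6) and FAT-4 (Δ5) lead on to arachidonic and eicosapentaenoic acid. Cold-blooded animals in general raise the unsaturation of their membranes in the cold, and *fat-7* of *C. elegans* is a classic gene induced at low temperature. Lipids were not measured here, only the transcripts of these genes.

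In the authors' tables (ce10 build), *fat-4* (chromosome IV, 9799450 to 9802052) and *fat-3* (IV, 9803042 to 9805979) are neighbours, as are *fat-1* (IV, 13315621 to 13318582) and *fat-2* (IV, 13323855 to 13326254). *fat-6* lies at IV, 11913795 to 11915645, and *fat-7* on another chromosome, at V, 7151427 to 7153112. The listed interval of *fat-5* (V, 17555827 to 17726691) spans 170865 bases and is shared with 16 other genes, so it is no position for *fat-5* itself. *fat-6* and *fat-7* are close paralogs, and how the authors' counting split reads that fit both is uncertain. At 25°C, however, *fat-7* of old *npr-8(ok1439)* held 0.263% to 0.506% of the number of fragments of *fat-6*, so in those libraries few fragments of *fat-6* can have been given to *fat-7*.

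The libraries held 18690583 to 36883662 fragments, with a median of 26451138, and in every comparison the expression of all 7 genes passed the filter on low counts. The genotype rests on the labels: *npr-8* itself had 33 to 76 fragments in WT and 53 to 93 in *npr-8(ok1439)* libraries of the gene tables, and a gene total does not show which part is deleted. One library stood apart, replicate 1 of young *npr-8(ok1439)* at 25°C, whose scaling factor was 1.30, beside 0.879 to 0.946 in the other 4, and whose 7 summed intestinal markers stood at 1902 counts per 1000000 fragments (CPM), beside 3777 to 4290.1. Leaving it out changed no call of the 7 genes, and the values without it are given beside the results of that group. In 2 other libraries (replicate 4 of young WT and replicate 3 of young *npr-8(ok1439)*, both at 25°C) the authors' FPKM summed to 583264 and 552458, beside at least 1087140 in the other 38, although their counts were not low, and so FPKM are given for the 38. Tissue markers differed between groups. The intestine, where the Δ9 genes are known to be strongly expressed, is the main fat store of the animal, and the sum of its 7 markers ranged from 5808 to 7060 CPM in young WT at 20°C and from 928 to 1034 CPM in old WT at 20°C. In RNA from whole animals, fewer cells of a type and less RNA per cell cannot be told apart.

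Levels per gene length (FPKM, 38 libraries) placed *fat-2* at the top of the family in 33 libraries and *fat-6* in the other 5. *fat-2* ranged from 593 to 1460.0 FPKM and *fat-1* from 393 to 840.4 FPKM. At the bottom stood *fat-7* in 24 libraries and *fat-5* in 14. *fat-7* varied most: its levels spanned 1.17 to 343 FPKM. In TMM-scaled CPM, the highest of the 8 group means of *fat-7* was 265 times the lowest, beside 4.07 times for *fat-5*, 4.03 times for *fat-6*, 2.84 times for *fat-3* and less than that for *fat-4* (1.93), *fat-2* (1.86) and *fat-1* (1.59).

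**Figure D1:**
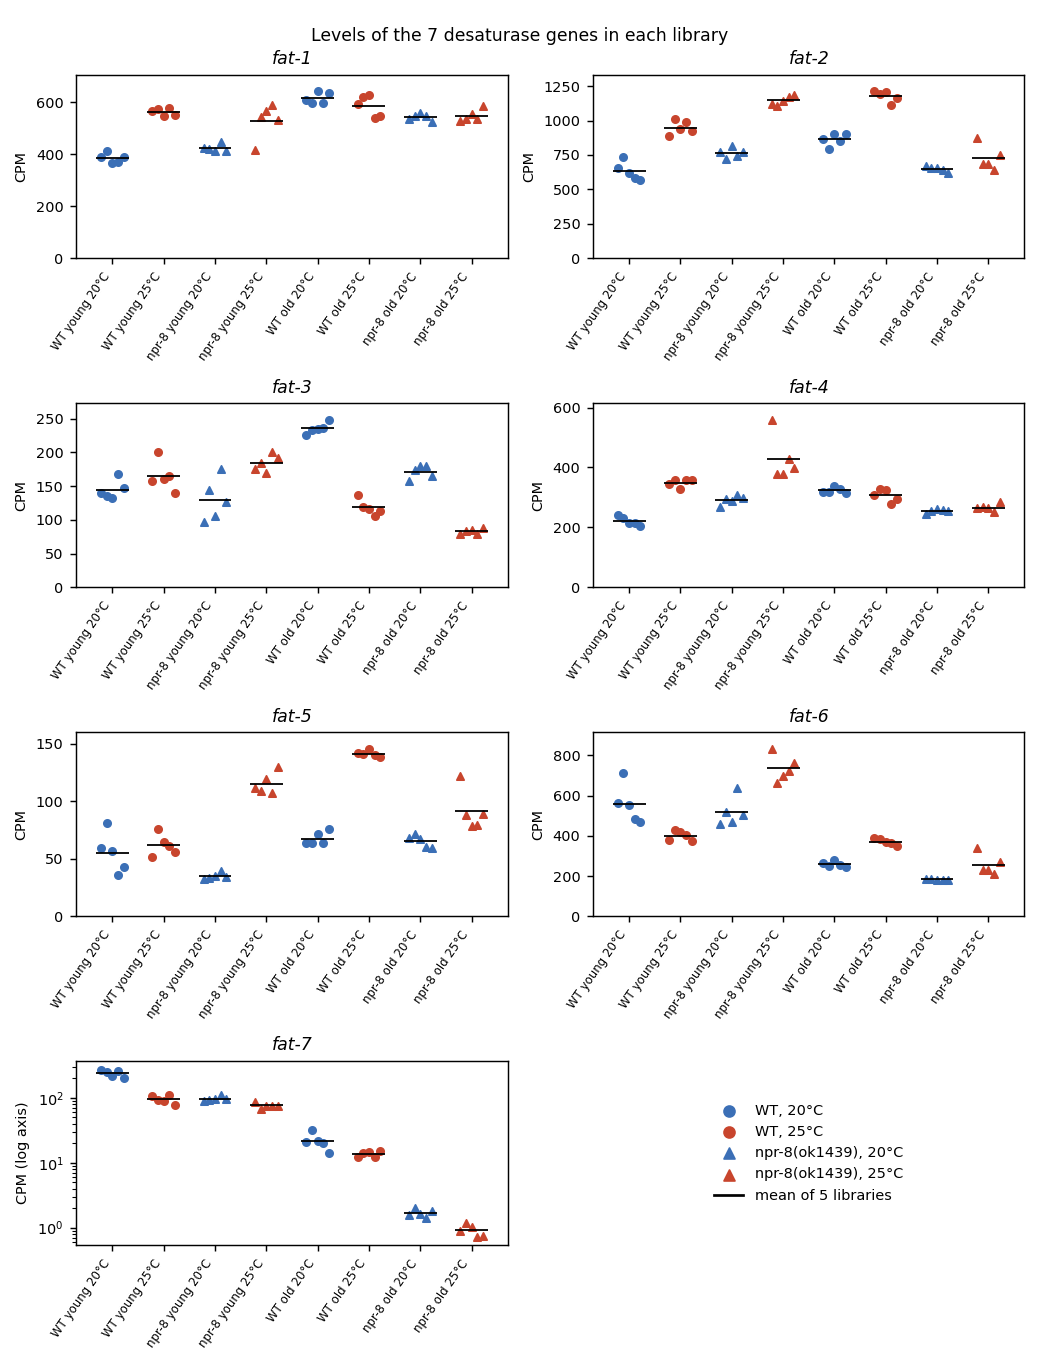
Levels of *fat-1* to *fat-7* in CPM (vertical axis, logarithmic for *fat-7* only) in the 5 libraries of each of 8 groups (horizontal axis), blue for 20°C and red for 25°C, circles for WT and triangles for *npr-8(ok1439)*, with the mean of each group as a bar. *fat-7* ran from a mean of 241 CPM in young WT at 20°C to 0.909 CPM in old *npr-8(ok1439)* at 25°C, while the other 6 genes moved by at most 4.07-fold.

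*fat-7* was highest in young WT at 20°C, with 273, 248, 217, 263 and 202 CPM in the 5 libraries. In young WT at 25°C it measured 107, 93.6, 90.6, 112 and 78.4 CPM. In young *npr-8(ok1439)* it measured 90.4, 93.4, 97.6, 110.4 and 95.5 CPM at 20°C. Young WT at 20°C thus stood above both other groups in every library, and those 2 groups overlapped. At 25°C young *npr-8(ok1439)* had 86.9, 68.4, 75.2, 76.3 and 75.4 CPM, which overlapped young WT at 25°C. Old WT had 21.1, 31.9, 21.9, 19.9 and 14.0 CPM at 20°C. At 25°C old WT had 12.5, 14.1, 14.9, 12.3 and 15.4 CPM, and these groups of old WT animals overlapped while both lay below all young libraries. Old *npr-8(ok1439)* had 1.54, 2.01, 1.64, 1.43 and 1.78 CPM at 20°C, from 46 to 62 fragments a library. At 25°C it had 0.889, 1.17, 1.02, 0.724 and 0.740 CPM, from 18 to 35 fragments. These 2 groups did not overlap with each other or with any other group.

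The first question was how the family differed between the growth temperatures. Growth at 25°C was compared with 20°C in each strain and age. In young WT, 1 of the 7 genes was called, *fat-7*, which fell by 1.30 ± 0.10 on the log2 scale (SE), or 2.46-fold (quasi-likelihood F test of edgeR, adjusted p by Benjamini-Hochberg = 6.95e-08). A gene is called here at an adjusted p under 0.05 and at least a 2-fold change. In this comparison 34.8% of all 14976 tested genes were called lower and 21.4% higher, so 1 of 7 is below the share of all genes. The intestinal markers moved in the same direction, with a sum of 5808 to 7060 CPM at 20°C and 3495 to 4278 CPM at 25°C, and their part in the *fat-7* result was not tested. *fat-6* was 1.36-fold lower in young WT at 25°C (adjusted p = 3.93e-04), below the 2-fold limit. The genes of polyunsaturated fatty acid synthesis were on the other side: *fat-4* was 1.61-fold, *fat-2* 1.53-fold and *fat-1* 1.48-fold higher at 25°C (adjusted p 7.74e-09, 4.67e-07 and 1.79e-08), without overlap of the groups. *fat-3* was 1.16-fold higher (adjusted p = 0.0474), with overlap, and its log2 change of 0.21 was -0.016 with limma on log2(FPKM + 1). The sum of 9 germline and oocyte markers was 1271 to 1455 CPM at 20°C and 8672 to 9399 CPM at 25°C, and its part in these values was not tested.

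In young *npr-8(ok1439)* the picture at 25°C differed for the Δ9 genes. *fat-5* measured 32.3, 33.3, 34.996, 39.3 and 33.7 CPM at 20°C. At 25°C it measured 111, 109, 119, 107 and 129 CPM. It rose by 1.75 ± 0.09 (log2), or 3.37-fold (adjusted p = 3.37e-09), as 1 of 7 genes called, beside 12.8% of all tested genes called higher and 26.2% called lower. *fat-6* was 1.46-fold higher (adjusted p = 0.00300) and *fat-7* 1.25-fold lower (adjusted p = 0.0153). Without the library that stood apart, the log2 changes of *fat-5*, *fat-6* and *fat-7* were 1.74, 0.46 and -0.41. *fat-2*, *fat-4*, *fat-3* and *fat-1* were 1.52-, 1.505-, 1.44- and 1.26-fold higher, each at an adjusted p of at most 0.0106. Their log2 changes were 0.61, 0.59, 0.53 and 0.33, and 0.59, 0.43, 0.52 and 0.39 without the library that stood apart. The intestinal markers summed to 5296 to 6759 CPM at 20°C and to 1902 to 4290.1 CPM at 25°C (3777 to 4290.1 CPM without that library). The germline and oocyte markers summed to 1588 to 2089 CPM at 20°C and to 2151 to 6061 CPM at 25°C (5628 to 6061 CPM without that library). The part of both sets of markers in these values was not tested.

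The difference between the strains in the response of young animals to temperature was tested directly as an interaction. For *fat-5* the change at 25°C was higher in *npr-8(ok1439)* by 1.55 ± 0.21 (log2, adjusted p = 3.63e-06), called beside 15.9% of all genes. Without the library that stood apart the differences were 1.53 for *fat-5*, 0.89 for *fat-6* and 0.88 for *fat-7*. In WT the gene had 59.6, 81.0, 56.4, 35.6 and 42.5 CPM at 20°C and 51.9, 75.8, 64.1, 61.5 and 55.6 CPM at 25°C, and the groups overlapped (1.15-fold, adjusted p = 0.356). *fat-6* and *fat-7* differed between the strains by 0.98 ± 0.17 and 0.97 ± 0.15 (adjusted p 5.62e-05 and 2.03e-05), just under the 2-fold limit. Leaving out 1 library took *fat-6* past it in 5 of 20 fits and *fat-7* in 5 of 20. The 2 genes crossed the limit at up to 1.06 and 1.02: *fat-6* without replicate 4 or 5 of young WT at 20°C, replicate 4 of young *npr-8(ok1439)* at 20°C, or replicate 2 or 3 of it at 25°C, and *fat-7* without replicate 5 of young WT at 20°C, replicate 4 of young *npr-8(ok1439)* at 20°C, replicate 1 or 4 of young WT at 25°C, or replicate 2 of young *npr-8(ok1439)* at 25°C.

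In old animals *fat-3*, the Δ6 desaturase gene, was lower at 25°C in both strains. In old WT it had 226, 233, 235, 236 and 248 CPM at 20°C. At 25°C it had 137, 119, 117, 106 and 113 CPM. The 2 groups of old WT did not overlap, and *fat-3* fell by 1.01 ± 0.05 (log2, adjusted p = 1.89e-10), a call just past 2-fold that was lost at -0.98, -0.96 and -0.98 without replicate 5 at 20°C or replicate 4 or 5 at 25°C, and at -0.99 with RLE scaling, -0.98 with DESeq2 and -0.98 without the filter. In old *npr-8(ok1439)* it had 157, 174, 180.5, 179.7 and 165 CPM at 20°C. At 25°C the values were 78.4, 84.0, 85.1, 79.5 and 88.1 CPM, and *fat-3* fell by 1.07 ± 0.05 (adjusted p = 7.44e-11), a call kept in all 10 fits with 1 library left out. Only 4.25% of all genes were called lower in old WT and 5.84% in old *npr-8(ok1439)*. In old WT, *fat-5* had 63.8, 63.3, 71.5, 63.6 and 75.4 CPM at 20°C. At 25°C it had 142, 141, 145, 140.5 and 138 CPM, without overlap. It rose 2.07-fold in old WT (log2 1.05 ± 0.05, adjusted p = 9.68e-12), beside 1.98% of all genes called higher, and was 1.38-fold higher in old *npr-8(ok1439)* (adjusted p = 0.00431). *fat-6* was 1.41-fold and 1.38-fold higher at 25°C in old WT and old *npr-8(ok1439)*. *fat-7* was lower at 25°C in both, with log2 changes of -0.67 ± 0.19 and -0.91 ± 0.16 (adjusted p 0.0125 and 2.46e-04), and in old *npr-8(ok1439)* it passed the limit at -1.02 without replicate 2 at 25°C. The intestinal markers of old WT were lower at 25°C too, with sums of 684 to 744 CPM beside 928 to 1034 CPM, while those of old *npr-8(ok1439)* overlapped (425 to 734 CPM beside 464 to 551 CPM), and their part in the *fat-3* and *fat-7* values was not tested.

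Between the ages the response to temperature of *fat-3* differed in both strains. Its change at 25°C was lower in old than in young animals by 1.20 ± 0.11 in WT (adjusted p = 1.92e-09) and by 1.49 ± 0.16 in *npr-8(ok1439)* (adjusted p = 2.32e-08), beside 22% and 11.7% of all genes called lower in these interactions. In young animals *fat-3* was 1.16-fold and 1.44-fold higher at 25°C. In *npr-8(ok1439)*, *fat-5* also differed, with a change 1.19 ± 0.14 lower in old animals (adjusted p = 1.12e-07). Without the library that stood apart these differences in *npr-8(ok1439)* were -1.48 for *fat-3* and -1.18 for *fat-5*. In WT, *fat-6* and *fat-5* differed in the other direction, by 0.96 ± 0.11 and 0.87 ± 0.22 (adjusted p 4.02e-08 and 0.00139), under the limit, and *fat-6* passed it at 1.01 and 1.02 without replicate 4 or 5 of young WT at 20°C. Between the strains, no gene of the family was called in the interaction in old animals, where 7.07% of all genes were called. *fat-5* and *fat-2* had the lowest adjusted p in it, with changes 0.65 ± 0.12 and 0.35 ± 0.08 lower in *npr-8(ok1439)* (4.59e-04 and 8.64e-04).

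With age *fat-7* fell in both strains at both temperatures, and its largest changes in any comparison were those with age in *npr-8(ok1439)*. In WT at 20°C, *fat-7* fell by 3.41 ± 0.20 (log2), or 10.6-fold (adjusted p = 3.02e-08), and at 25°C by 2.80 ± 0.10, or 6.94-fold (adjusted p = 7.01e-12). In *npr-8(ok1439)* it fell 53.3-fold at 20°C (log2 -5.74 ± 0.08, adjusted p = 8.54e-18) and 83.8-fold at 25°C (log2 -6.39 ± 0.17, adjusted p = 3.55e-11), the latter -6.34 without the library that stood apart. Every young library lay above every old library of its strain and temperature. The intestinal markers were lower with it: their sum was 3495 to 4278 CPM in young and 684 to 744 CPM in old WT at 25°C, 5296 to 6759 and 464 to 551 CPM in *npr-8(ok1439)* at 20°C, and 1902 to 4290.1 and 425 to 734 CPM at 25°C. Their part in these results was not tested. The 2 strains shared no libraries in this contrast, and the difference between them, an interaction added after the data had been seen, was -2.31 ± 0.24 at 20°C (adjusted p = 1.53e-07) and -3.57 ± 0.18 at 25°C (adjusted p = 1.07e-11), beside 12.8% and 11.6% of all genes called lower. Without the library that stood apart the latter was -3.50.

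*fat-6*, the paralog of *fat-7*, changed less with age. In young WT at 20°C it had 563, 712, 551, 484 and 469.9 CPM. In old WT at 20°C it had 267, 251, 281, 255 and 246 CPM, below every young library. The fall of 1.04 ± 0.09 (log2, 2.06-fold, adjusted p = 6.10e-08) was lost as a call at -0.96 without replicate 2 of young WT at 20°C, the library with 712 CPM, and at -0.91 with RLE scaling. At 25°C, young WT had 378, 429.7, 419, 406 and 373 CPM, old WT 391, 383, 368, 362 and 349.5 CPM, and the groups overlapped (log2 -0.11 ± 0.05, adjusted p = 0.0348, but 0.10 with library sizes alone). In *npr-8(ok1439)* at 20°C the young animals had 460.4, 518, 467, 635 and 502 CPM. The old ones had 187, 186, 182, 180.2 and 179 CPM. At 25°C the young animals had 831, 663, 699.6, 724 and 763 CPM and the old ones 338, 231, 231, 212 and 271 CPM. In this strain *fat-6* thus fell at both temperatures without overlap, by 1.38 ± 0.07 (2.60-fold, adjusted p = 7.32e-11) and by 1.52 ± 0.15 (2.87-fold, adjusted p = 1.03e-06, log2 -1.47 without the library that stood apart). Of all genes, 36.7% were called lower with age in WT at 20°C, and 39.3% and 23.4% in *npr-8(ok1439)* at 20°C and 25°C. The intestinal markers fell too, from 5808 to 7060 CPM in young to 928 to 1034 CPM in old WT at 20°C. In *npr-8(ok1439)* they fell from 5296 to 6759 to 464 to 551 CPM at 20°C and from 1902 to 4290.1 to 425 to 734 CPM at 25°C. Their part in the *fat-6* values was not tested. At 25°C the change of *fat-6* with age was 1.39 ± 0.15 lower in *npr-8(ok1439)* than in WT (adjusted p = 1.45e-07, -1.32 without the library that stood apart). That interaction was added after the data had been seen, and 11.6% of all genes were called lower in it.

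*fat-5*, the third Δ9 gene, did not follow them. In WT it rose 2.29-fold with age at 25°C (log2 1.19 ± 0.08, adjusted p = 9.21e-09) and was 1.28-fold higher at 20°C (adjusted p = 0.0890). In *npr-8(ok1439)* at 20°C its values in old animals were 67.7, 71.5, 67.0, 60.2 and 59.1 CPM, all above the young ones. It rose by 1.03 ± 0.06 (adjusted p = 1.53e-10), a call lost at 0.994 and 0.99997 without replicate 1 or replicate 2 of the young animals. At 25°C the old animals had 122, 88.2, 78.4, 79.2 and 88.4 CPM, which overlapped the young ones (log2 -0.33 ± 0.12, adjusted p = 0.0262, or -0.35 without the library that stood apart). The change with age at 25°C was 1.51 ± 0.15 lower in *npr-8(ok1439)* than in WT (adjusted p = 3.88e-08, -1.504 without that library). This is the same interaction, added after the data had been seen, with 11.6% of all genes called lower.

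In all, age gave 2, 2, 3 and 3 called genes of 7 in WT at 20°C, WT at 25°C, *npr-8(ok1439)* at 20°C and *npr-8(ok1439)* at 25°C, beside 63.4%, 24.5%, 66.5% and 33.8% of all genes called in either direction. The median log2 change of the 7 genes was 0.50, -0.11, -0.07 and -0.69, beside -0.16, -0.01, -0.30 and -0.04 for all genes. Of the polyunsaturated fatty acid genes, only *fat-3* was called with age, and only in *npr-8(ok1439)* at 25°C, where it fell by 1.14 ± 0.08 (adjusted p = 5.54e-08, beside 23.4% of all genes called lower). The value was -1.16 without the library that stood apart, and with library sizes alone it was -0.97 and no longer called. In WT at 20°C, *fat-3*, *fat-1*, *fat-4* and *fat-2* were 1.68-, 1.65-, 1.52- and 1.42-fold higher in old animals, each at an adjusted p of at most 3.25e-06. In *npr-8(ok1439)* at 25°C, *fat-4* and *fat-2* were 1.61- and 1.57-fold lower (adjusted p 7.11e-04 and 2.77e-04, log2 -0.57 and -0.66 without that library). The sum of 9 germline and oocyte markers was also higher in old animals at 20°C, with 1271 to 1455 CPM in young WT and 7438 to 7826 CPM in old WT, and its part in these values was not tested.

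The loss of NPR-8 was compared with WT at each age and temperature. These 4 comparisons use the same libraries as those above. *fat-7* was the only gene of the family called. In young animals at 20°C it fell by 1.29 ± 0.08 (log2), or 2.45-fold, in *npr-8(ok1439)* (adjusted p = 2.08e-06), beside 1.48% of all genes called lower. Here the intestinal markers overlapped, with sums of 5808 to 7060 CPM in WT and 5296 to 6759 CPM in *npr-8(ok1439)*. In young animals at 25°C, *fat-7* was 1.24-fold lower (adjusted p = 0.0241, log2 -0.31, or -0.39 without the library that stood apart), and 0 of 7 genes were called by edgeR, beside 17.3% of all genes. In old animals *fat-7* fell by 3.58 ± 0.25, or 11.997-fold, at 20°C (adjusted p = 5.19e-07) and by 3.86 ± 0.13, or 14.5-fold, at 25°C (adjusted p = 3.34e-12), beside 9.24% and 3.5% of all genes called lower. The intestinal markers of old animals were lower in *npr-8(ok1439)* at 20°C (464 to 551 CPM, beside 928 to 1034 CPM in WT) and lower at 25°C in 4 of 5 libraries (425 to 532 CPM, beside 684 to 744 CPM), the exception being replicate 1 with 734 CPM. *elt-2*, the GATA factor of the intestine, was lower at both temperatures without overlap (4.49 to 6.47 beside 10.4 to 12.5 CPM at 20°C, 6.63 to 10.1 beside 10.8 to 14.0 CPM at 25°C). The part of these markers in the *fat-7* results was not tested.

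The remaining genes differed between the strains by less than 2-fold. In young animals at 25°C, *fat-5* was 1.89-fold and *fat-6* 1.86-fold higher in *npr-8(ok1439)* (adjusted p 2.70e-05 and 3.34e-05). These were 4 of 7 genes with a higher level at an adjusted p under 0.05, with *fat-4* (1.25-fold) and *fat-2* (1.22-fold), beside 35.7% of all genes. With library sizes alone as the scaling, *fat-5* and *fat-6* passed the limit at 1.09 and 1.08. Without the library that stood apart, the log2 differences of *fat-5*, *fat-6*, *fat-4* and *fat-2* were 0.90, 0.82, 0.17 and 0.27. The germline and oocyte markers of young animals at 25°C summed to 8672 to 9399 CPM in WT. In *npr-8(ok1439)* they summed to 2151 to 6061 CPM (5628 to 6061 CPM without that library). The intestinal markers overlapped (3495 to 4278 beside 1902 to 4290.1 CPM). The part of both sets of markers in these differences was not tested. In young animals at 20°C, *fat-4* was 1.33-fold higher (adjusted p = 1.24e-04) and *fat-5* 1.57-fold lower (adjusted p = 0.0216, with overlap). In old animals at 25°C, 6 of 7 genes were lower in *npr-8(ok1439)* at an adjusted p under 0.05, beside 29.7% of all genes, and at 20°C these were 5 of 7, beside 37.9%. At 25°C they were *fat-2* (1.55-fold), *fat-5* (1.49-fold), *fat-6* (1.39-fold), *fat-3* (1.36-fold) and *fat-4* (1.104-fold), besides *fat-7*. For *fat-4* the log2 difference was -0.14, and library sizes alone moved the median of all genes there from -0.009 to 0.088. The intestinal markers of old *npr-8(ok1439)* were lower at 20°C (464 to 551 beside 928 to 1034 CPM). At 25°C they were lower but for replicate 1 (425 to 532 CPM and 734 CPM, beside 684 to 744 CPM). Their part in these counts was not tested. The *fat-1* level of old animals did not pass the test between the strains (adjusted p 0.0703 at 20°C and 0.627 at 25°C).

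**Figure D2:**
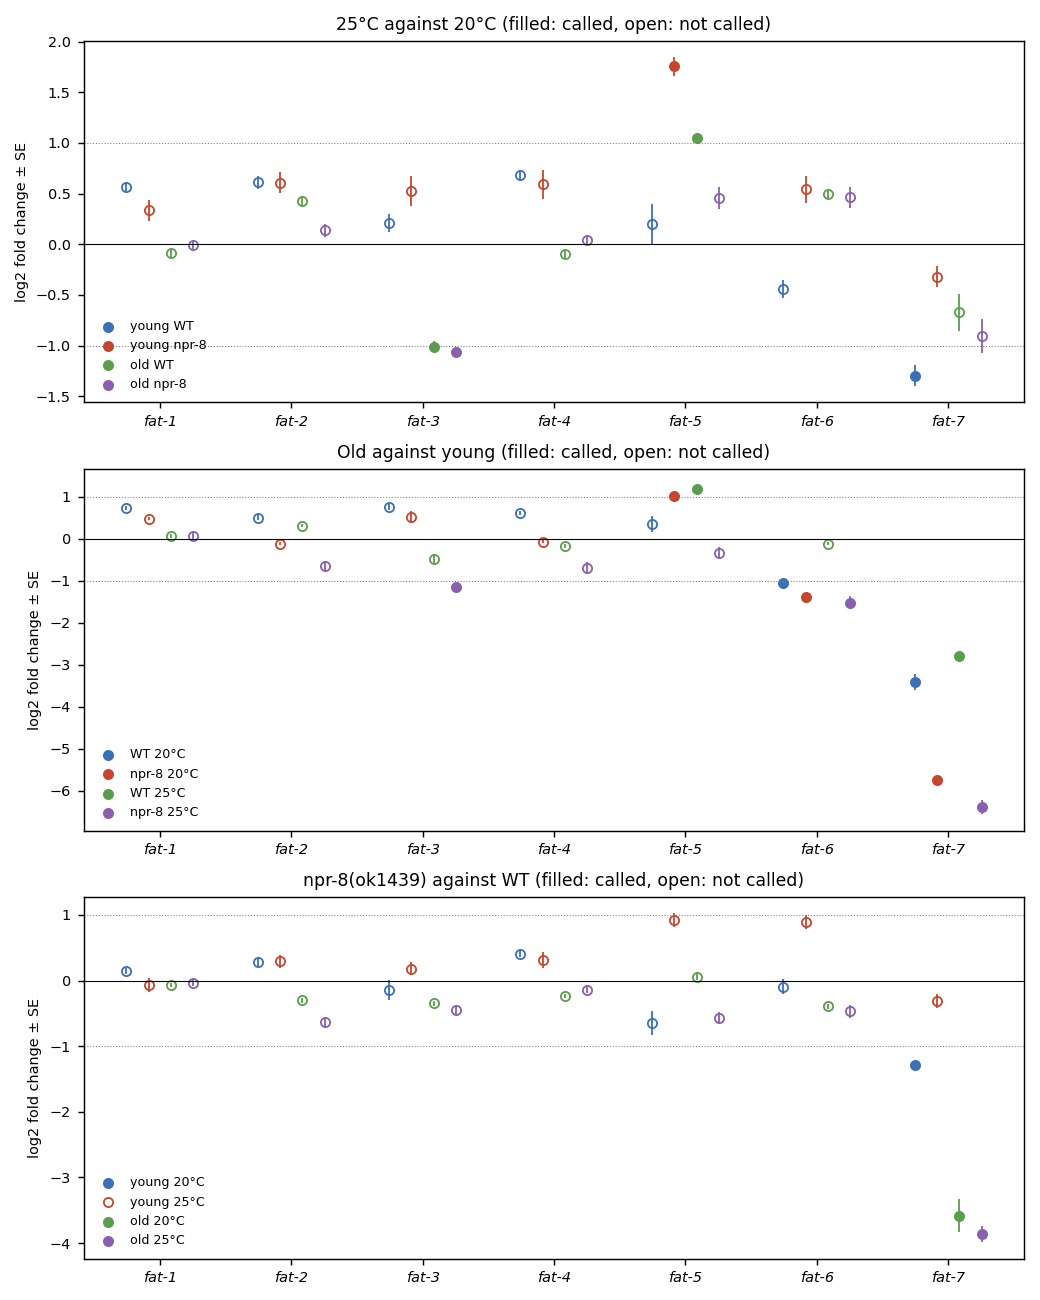
Log2 fold change (vertical axis) with its standard error as a bar for each of the 7 genes (horizontal axis), for 25°C against 20°C, for old against young animals and for *npr-8(ok1439)* against WT, each in 4 settings given by colour, with filled points for called genes and dotted lines at 2-fold. Of 84 values 18 were called, 8 of them for *fat-7*, which ran down to -6.39 in old against young *npr-8(ok1439)* at 25°C. These counts only describe the plot, as the share of all genes called differed widely between comparisons and reached 66.5% with age in *npr-8(ok1439)* at 20°C.

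The balance within the family was read from FPKM, which account for gene length, within each library. In young WT at 20°C the 3 Δ9 genes held 37.9% to 44.5% of the summed FPKM of the 7 genes, with a mean of 41.9% ± 3.0 (SD, n = 5). In young WT at 25°C they held 25.3% ± 0.8 (n = 4). In old WT the share was 17.3% ± 1.3 at 20°C and 22.6% ± 0.7 at 25°C (n = 5 each). Young *npr-8(ok1439)* had a like share at both temperatures, 34.1% ± 2.2 (n = 5) and 34.3% ± 2.2 (n = 4), and old *npr-8(ok1439)* had 15.3% ± 0.2 and 20.4% ± 2.3 (n = 5 each). The share at 25°C was thus lower than at 20°C in young WT, and higher than at 20°C in both old strains. No test was made on these shares.

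Among the Δ9 genes themselves, *fat-6* held most of the FPKM in all 38 libraries, from 63.3% in young WT at 20°C up to 82.2% in young *npr-8(ok1439)* at 25°C. *fat-7* held 28.6% ± 3.5 of the Δ9 FPKM in young WT at 20°C, 17.1% ± 2.3 (n = 4) in young WT at 25°C, 6.42% ± 1.87 in old WT at 20°C and 0.291% ± 0.086 in old *npr-8(ok1439)* at 25°C. The level of *fat-6* was 2.34 ± 0.39 times that of *fat-7* in young WT at 20°C and 284 ± 87 times in old *npr-8(ok1439)* at 25°C. *fat-5* went the other way, from 5.52% ± 1.09 of the Δ9 FPKM in young WT at 20°C to 22.1% ± 0.9 in old WT and 23.1% ± 1.8 in old *npr-8(ok1439)* at 25°C.

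**Figure D3:**
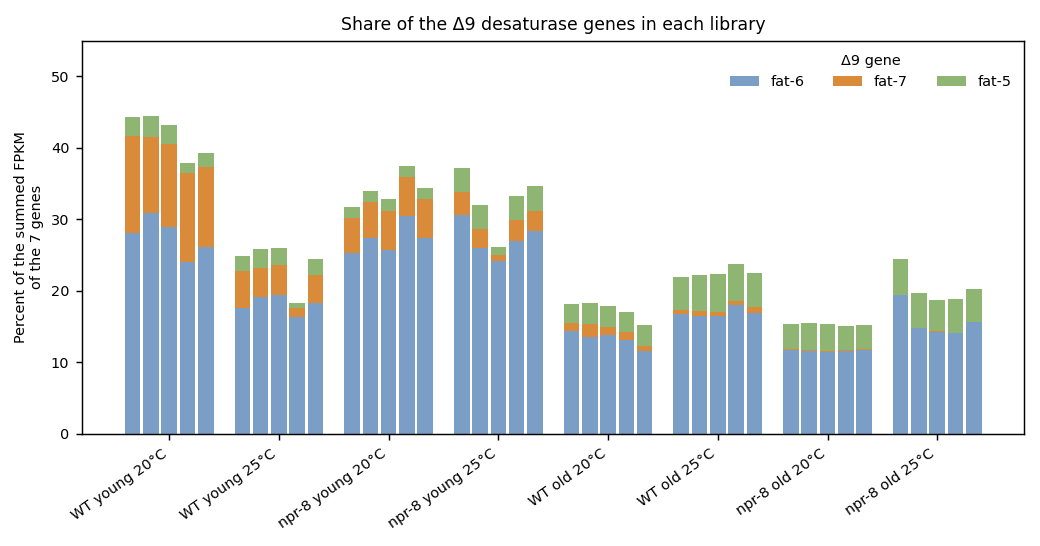
Share of *fat-6*, *fat-7* and *fat-5* in the summed FPKM of the 7 desaturase genes (vertical axis, percent), with 1 stacked bar for each of 40 libraries, by group. The stack is tallest in young WT at 20°C (37.9% to 44.5%), and the *fat-7* part is hardly visible in old *npr-8(ok1439)*. The shorter bars of replicate 4 in young WT and of replicate 3 in young *npr-8(ok1439)* at 25°C are the 2 libraries of low FPKM sum.

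The plot of *fat-7* against intestinal markers shows how both moved over the 40 libraries. Each group had all of its 7 summed markers (*elt-2*, *ges-1*, *ifb-2*, *act-5*, *vha-6*, *nhx-2* and *asp-1*) above 1 CPM on average, so intestinal RNA was present in every group. *elt-2* stood at 43.0 CPM in young WT at 20°C, 11.3 CPM in old WT at 20°C and 5.48 CPM in old *npr-8(ok1439)* at 20°C. Sums of sperm markers (6 genes) were 337 to 389 CPM in young WT at 20°C and 5.92 to 7.05 CPM in old WT at 25°C, those of 6 hypodermal markers 1952 to 4258 CPM in young WT at 20°C and 82.4 to 254 CPM in the 6 groups other than the young ones at 20°C, so the makeup of the RNA differed widely between groups.

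**Figure D4:**
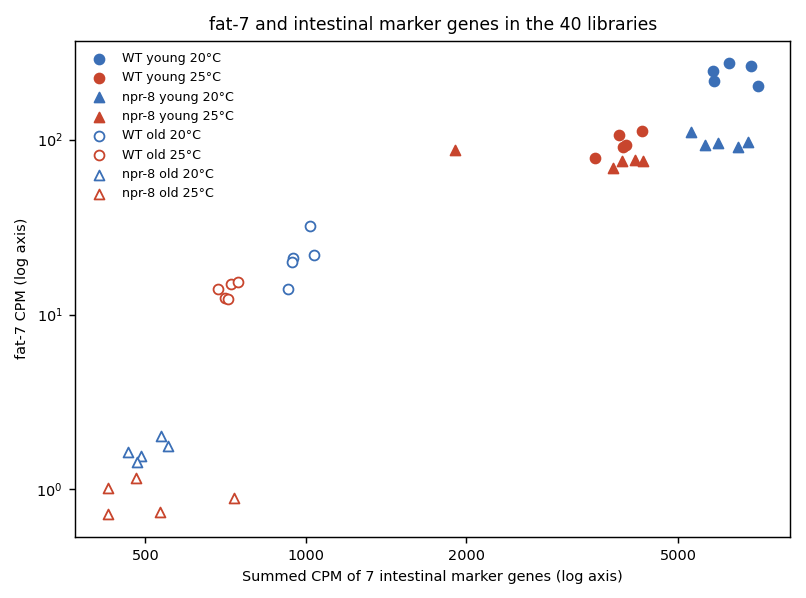
Level of *fat-7* (vertical axis, CPM, logarithmic) against the summed CPM of 7 intestinal marker genes (horizontal axis, logarithmic) in each of 40 libraries, blue for 20°C and red for 25°C, circles for WT and triangles for *npr-8(ok1439)*, filled for young and open for old animals. Young WT and young *npr-8(ok1439)* at 20°C overlap on the horizontal axis and not on the vertical one, and the single filled triangle at 1902 CPM is the library that stood apart.

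The genes around the desaturases in lipid metabolism were described from lists. Of 9 acyl chain elongases (*elo-1* to *elo-9*), which lengthen the chains that desaturases act on, 7 fell and 0 rose with age in WT at 20°C, 5 fell in WT at 25°C, 6 of 8 tested fell in *npr-8(ok1439)* at 20°C and 5 of 9 fell at 25°C. Of all genes, 36.7%, 15.4%, 39.3% and 23.4% were called lower in these comparisons, in which the intestinal markers were also lower in old animals, and the part of the latter was not tested. The median log2 change was -2.14, -1.67, -2.07 and -1.26, beside -0.16, -0.01, -0.30 and -0.04 for all genes. *elo-9* fell in all 4 comparisons (log2 -3.37, -2.09, -4.06 and -3.33). *elo-2*, which acts in the synthesis of polyunsaturated chains, fell in all 4 as well (-1.15, -1.92, -3.28 and -3.76). In young animals 4 of 9 elongases were called lower at 25°C in WT and 3 of 9 in *npr-8(ok1439)*, beside 34.8% and 26.2% of all genes. *elo-4*, *elo-7* and *elo-8* fell in both, with log2 changes of -4.66, -4.70 and -4.26 in WT and -3.74, -2.46 and -2.45 in *npr-8(ok1439)*. The sperm markers were lower at 25°C too, with sums of 22.9 to 35.9 beside 337 to 389 CPM in WT. In *npr-8(ok1439)* they were 50.1 to 80.8 beside 326 to 366 CPM, and their part was not tested. *elo-4*, *elo-7* and *elo-8* were higher in old *npr-8(ok1439)* than in old WT, with log2 differences of 1.83, 5.28 and 3.58 at 20°C and 1.56, 4.36 and 2.18 at 25°C, beside 10.5% and 10.1% of all genes called higher. *elo-2* went the other way (-1.38 and -1.17), as did *elo-6* at 20°C (-1.05), beside 9.24% and 3.5% of all genes called lower. The levels of *elo-4*, *elo-7* and *elo-8* were low, at 0.145 to 2.0003 CPM on average in old WT at 20°C. Like these 3 genes, the sum of 6 sperm markers was higher in old *npr-8(ok1439)* at 20°C (93.2 to 98.5 CPM, beside 8.05 to 13.4 CPM in old WT). Its part in the values of these 3 genes was not tested.

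Phosphatidylcholine synthesis and phospholipid remodelling are the route by which acyl chains reach membranes. Of 13 genes tested, 6 fell and 1 rose (*cept-2*, log2 1.45) with age in WT at 20°C, and 4 fell in WT at 25°C. In *npr-8(ok1439)*, 5 of 12 fell and 2 rose at 20°C (*acl-9*, 1.19, and *cept-2*, 1.18), and 5 of 13 fell at 25°C. At 20°C the counts of both directions together are below the share of all genes called in either direction, which was 63.4% in WT and 66.5% in *npr-8(ok1439)*, and at 25°C it was 24.5% and 33.8%. Of all genes, 36.7% and 15.4% were called lower in WT at 20°C and 25°C, and 39.3% and 23.4% in *npr-8(ok1439)*. At 20°C the count that fell in *npr-8(ok1439)*, 5 of 12, is near its share of all genes, and 6 of 13 in WT is little above it. At 25°C, 4 of 13 and 5 of 13 are above their shares. No test was made on these counts. The intestinal markers were lower in old animals too, and their part in these values was not tested. *sams-1*, which makes the methyl donor S-adenosylmethionine, fell in all 4, with log2 changes of -3.19 and -2.25 in WT at 20°C and 25°C and -5.25 and -4.43 in *npr-8(ok1439)*. *pmt-2*, a phosphoethanolamine methyltransferase, changed by -2.95, -2.29, -5.13 and -4.08 in the same order. *cept-1*, whose product joins the head group to diacylglycerol, changed by -1.89, -1.84, -3.57 and -3.58. In old animals *sams-1* and *pmt-2* were also lower in *npr-8(ok1439)* than in WT, with log2 differences of -1.42 and -2.02 at 20°C and -1.28 and -1.33 at 25°C. Between temperatures, the log2 changes of these genes stayed under the 2-fold limit, from -0.87 (*ckb-1*, young WT) to 0.97 (*pmt-2*, old *npr-8(ok1439)*).

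Of the regulators of desaturase genes, of which 10 were tested (8 in *npr-8(ok1439)* at 20°C), 1 rose and 1 fell with age in WT at 20°C and 1 fell in each of the other 3 comparisons with age, beside 63.4%, 24.5%, 66.5% and 33.8% of all genes called in either direction. In all 4 the gene that fell was *nhr-80*, a nuclear receptor known to promote the expression of Δ9 desaturase genes, with log2 changes of -1.84 and -1.15 in WT at 20°C and 25°C and -2.40 and -2.08 in *npr-8(ok1439)*. The intestinal markers were lower in old animals in all 4 as well. Their part in the *nhr-80* values, and that of *nhr-80* in the desaturase values, was not tested. *nhr-49*, *mdt-15* and *sbp-1*, a nuclear receptor, a Mediator subunit and an SREBP factor that are known to drive *fat-5*, *fat-6* and *fat-7*, were called in none of the 12 comparisons, nor were *paqr-2* and *iglr-2*, which act in the sensing of membrane fluidity. *paqr-1*, a relative of *paqr-2*, rose with temperature in young WT and with age in WT at 20°C (log2 1.12 and 1.104), the former beside 21.4% of all genes called higher. Among 5 fatty acid synthesis genes and electron donors, *pod-2* (acetyl-CoA carboxylase) rose in young WT at 25°C (log2 1.06), beside 21.4% of all genes called higher. *fasn-1* (fatty acid synthase) fell with age in *npr-8(ok1439)* at 20°C (-1.66), and *cytb-5.1*, a cytochrome b5, fell with age in 3 of the 4 comparisons (-1.04 in WT at 20°C, -2.05 and -2.39 in *npr-8(ok1439)*). With age 1 and 0 of these 5 genes were called lower in WT at 20°C and 25°C, and 2 and 1 in *npr-8(ok1439)*, beside 36.7%, 15.4%, 39.3% and 23.4% of all genes. Of 7 sphingolipid genes, 3 and 1 were called lower with age in WT at 20°C and 25°C, and 4 and 4 in *npr-8(ok1439)*. At 25°C 1 was called higher in each strain. Of all genes, 36.7%, 15.4%, 39.3% and 23.4% were called lower in the same order. *sptl-2*, a subunit of serine palmitoyltransferase, fell with age in all 4 comparisons (-2.25, -1.30, -3.62 and -2.46).

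Genes whose pattern was most like that of each desaturase gene were found by Pearson's r of log2(CPM + 1) over the 35 libraries of the gene tables, among 10128 genes. These libraries share groups, depth and scaling, so r is a description. It compares the shape of a pattern and not its size. Group means ran from 0.909 to 241 CPM for *fat-7* but from 25.3 to 69.1 CPM for *T04F8.2*, its closest match. For *fat-1* they ran from 386 to 616 CPM, and from 65.7 to 549 CPM for *mcm-7*. *fat-7* was most like *T04F8.2* (r = 0.98), *prx-1* (0.98), whose name marks a peroxisome assembly factor, and *C46C11.2* (0.98). *fat-6* was most like *lys-1* (0.96), a lysozyme gene, *lgc-32* (0.96) and *chil-13* (0.94), and *fat-5* most like *F55G11.4* (0.93), *inx-9* (0.81) and *F15D4.5* (0.81). None of these 3 lists held another desaturase gene. *fat-1* was most like *mcm-7* (0.97), *rnr-1* (0.96) and *pcn-1* (0.96), genes of DNA replication, *fat-3* like *nuc-1* (0.93), *asm-2* (0.91) and *asah-1* (0.90), genes of a nuclease, a sphingomyelinase and a ceramidase, *fat-2* like *M60.4* (0.92) and *fat-4* like *Y40H7A.10* (0.91).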

How the data were processed

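Strand-specific mRNA libraries of whole animals were sequenced. The authors aligned reads to ce10 with HISAT2 per the study's methods (the submitters' processing notes list Bowtie2 2.3.4 and Cufflinks 2.2.1) and ran Cuffquant and Cuffdiff on pairs of groups. The deposited tables used give, per gene and library, estimated counts (fragments, not scaled) and FPKM, scaled by the authors within each table. Old *npr-8(ok1439)* at 20°C stood only in a table of transcripts, which were summed to genes by RefSeq accession or by matching counts. Of 13793 genes with at least 10 fragments on average in old WT at 20°C, 95.0% were matched, and 99.4% of the genes matched by accession came within 2% of the authors' group FPKM. In all, 12 columns of scaled fragments and the authors' columns of fold changes, p-values and q-values were not used.

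Counts were rounded and tested with edgeR 4.0.16 in R 4.3.3: filterByExpr (minimum count 10, total 15), TMM, robust quasi-likelihood F test, two-sided, Benjamini-Hochberg adjustment over all genes tested. Standard errors were derived from the log2 change and its F value. Each of 12 comparisons was scaled on its 10 libraries, and CPM on all 40, so a ratio of mean CPM departs from the fitted log2 change by up to 0.12. Another 4 interactions were planned and 2 added. The script was tested on simulated data. Alternatives were RLE scaling, library sizes alone, no filter, DESeq2 1.42.0, limma 3.58.1 on log2(FPKM + 1) and log2(FPKM + 0.1), an adjusted p under 0.01, a replicate block, accessions alone and leaving out each library. Named were all 7 genes, of each list at most the 4 called genes with the largest changes in a comparison, and for each gene up to 3 most alike by r among genes with a mean of at least 5 CPM. The regulators without a call, *elo-2* with age in WT at 20°C, and any other gene outside this rule were named after their values were seen. The tables number libraries 0 to 4 and the titles 1 to 5, and they were matched in order. Genes and lists were chosen with earlier results of these data known. *fld-1* and *acl-10* of the lists, and markers without values in all groups (*elt-7*, *elt-3*, *med-1*, *msd-1*, *unc-15* and *lev-11*), were not analysed here. No sequences were used.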

Additional observations from a re-analysis of the deposited data

Results flagged for a closer look

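Of 56 sets of 5 levels (7 genes in 8 groups), 2 held a library far from the other 4, and chance gives about 1 in 20 sets. *fat-4* stood at 558 CPM in replicate 1 of young *npr-8(ok1439)* at 25°C, beside 377 to 428 CPM in the other 4. This is the library with a scaling factor of 1.30 and 1902 CPM of intestinal markers. *fat-5* stood at 122 CPM in replicate 1 of old *npr-8(ok1439)* at 25°C, beside 78.4 to 88.4 CPM.

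The change of a gene differed between groups by a tested interaction in 8 results. For temperature these were *fat-3* between ages in WT (-1.20 on the log2 scale) and in *npr-8(ok1439)* (-1.49), *fat-5* between ages in *npr-8(ok1439)* (-1.19) and *fat-5* between strains in young animals (1.55). For age, chosen after seeing the data, they were *fat-7* between strains at 20°C (-2.31) and *fat-5*, *fat-6* and *fat-7* between strains at 25°C (-1.51, -1.39 and -3.57).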

How the results depend on the processing

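Of 126 results for single genes (7 genes in 18 comparisons and interactions), 26 were called, and 23 of these calls held in every fit with 1 library left out. Over all alternatives 2477 values kept direction and call, 48 changed sign, 23 gained and 14 lost the call, and all 126 kept their call status at an adjusted p under 0.01. Causes were not tested. Scaling moved the median of all genes by over 0.1 (log2) in 10 of 18 cases, by up to 0.285. With temperature in old WT, 1 gene was called with RLE scaling, 1 without the filter and 1 with DESeq2, in place of 2, and 1323 of all genes without the filter, in place of 853. With age in WT at 20°C, 1 was called with RLE, 1 with DESeq2 and 1 with limma on either FPKM scale, in place of 2. With genotype in young animals at 25°C, 2 were called with library sizes alone, in place of 0. All genes called there by limma numbered 191 (FPKM + 1), 150 (FPKM + 0.1) and, without the 2 libraries of low FPKM sum (chosen after seeing the data), 1128, in place of 2411. In old animals at 25°C limma (FPKM + 1) called 1211, in place of 1954. For temperature by age in WT, RLE gave 2 and library sizes alone 3, in place of 1. For temperature by genotype in young animals, library sizes alone gave 3 and no filter 2, in place of 1.

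With 1 library left out, called genes ranged from 1 to 2 for temperature in old WT, temperature in old *npr-8(ok1439)*, age in WT at 20°C and temperature by age in WT, and from 1 to 3 for temperature by genotype in young animals. *fat-2* passed the limit for age by genotype at 25°C at -1.01 without replicate 1 of old *npr-8(ok1439)* at 25°C. Ranges across 0 were -0.031 to 0.0027 for *fat-1* (temperature, old *npr-8(ok1439)*), -0.021 to 0.088 for *fat-1* (age, *npr-8(ok1439)* at 25°C), -0.18 to 0.0014 for *fat-6* (genotype, young at 20°C), -0.31 to 0.11 for *fat-6* (temperature by age, *npr-8(ok1439)*), -0.072 to 0.014 for *fat-2* (temperature by genotype, young), -0.0019 to 0.050 for *fat-1* (temperature by genotype, old) and -0.039 to 0.061 for *fat-1* (age by genotype at 25°C).

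Other changes of sign were in small values. In young WT with temperature, limma gave -0.016 for *fat-3* and -0.18 for *fat-5* (FPKM + 1), and -0.019 and -0.19 (FPKM + 0.1). Library sizes alone gave 0.032 for *fat-1* (temperature, old *npr-8(ok1439)*), 0.032 for *fat-4* and 0.10 for *fat-6* (age, WT at 25°C), 0.080 and 0.067 for *fat-1* (genotype at 25°C, young and old), -0.035 for *fat-6* (temperature by age, *npr-8(ok1439)*), 0.19 for *fat-2* and 0.13 for *fat-4* (temperature by genotype, young), 0.017 for *fat-6* (temperature by genotype, old) and -0.028 for *fat-1* (age by genotype at 25°C). For age in *npr-8(ok1439)* at 20°C, RLE gave 0.17 for *fat-2* and 0.21 for *fat-4*, DESeq2 0.16 and 0.21, and matching by accession alone 0.021 for *fat-4*. For *fat-6* (temperature by age, *npr-8(ok1439)*), RLE, DESeq2 and accession alone gave -0.19, -0.20 and -0.28. Without the filter, *fat-1* (age, *npr-8(ok1439)* at 25°C) was -0.0026, *fat-6* (temperature by age, *npr-8(ok1439)*) -0.0046, *fat-2* (temperature by genotype, young) 0.0074 and *fat-1* (age by genotype at 25°C) -0.023.

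The replicate numbers did not pair the libraries: correlations of same-numbered libraries ran from -0.41 to 0.25, and in 0 of 12 comparisons were all over 0.1. A replicate block changed the call of 0 of the 126 results, and gave 8389 genes for temperature in young WT (8411 without it) and 825 for genotype in young animals at 20°C (876 without it). Depth limits the *fat-7* values of old *npr-8(ok1439)*, which rest on 18 to 62 fragments a library.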
